A study of Mus musculus with 2 samples.

Results

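Kupffer cells are the resident macrophages of the liver. They sit inside the sinusoids, held in place beside endothelial and stellate cells, and are known for clearing bacteria, old red cells and debris from portal blood. Their numbers are known to be higher toward the portal side of the lobule than around the central vein. Clec4f is a lectin made by Kupffer cells, Cd5l is a secreted protein of tissue macrophages, and Vsig4 is a complement receptor of resident macrophages. In a spatial assay whose spots each cover several cells, spots rich in these transcripts are regions that hold more Kupffer cell RNA, not isolated Kupffer cells.

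Liver sections came from 1 AEG-1-C75S mouse and 1 AEG-1-WT littermate, both female and 8 weeks old, from a mating of heterozygotes. Astrocyte-elevated gene-1 (AEG-1, gene Mtdh) carries a palmitate on cysteine 75, and the AEG-1-C75S mouse is a CRISPR/Cas9 knock-in that has serine there in every cell. The sections are called C75S and WT by genotype. Both mice were naïve and untreated, and RNA was read on fixed, paraffin-embedded sections with 10x Visium, which counts unique molecular identifiers (UMIs) of gene probes on a grid of spots. With 1 section per genotype, no difference has a replicate check and none was tested: all intervals are 95% and cover counting error only, and genotype, animal and section cannot be told apart.

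The Kupffer-rich spots were chosen by their marker share K, the UMIs of Clec4f, Cd5l and Vsig4 over all UMIs of a spot, given here as CPM, the UMIs per 1000000 UMIs counted. Of the spots with at most 50000 UMIs, the top 5% by K in each section were taken, 115 of 2309 in WT and 108 of 2163 in C75S, or 223 of 4472 in all. The marker share of the chosen WT spots had a lowest value of 1486, a median of 1729 and a highest value of 3677 CPM. In C75S these values were 1725, 1917 and 3905 CPM. The other spots had medians of 683 and 844 CPM, in the same order of genotypes. At the boundary, the last WT spots inside had 1492, 1489 and 1486 CPM and the first outside had 1475, 1475 and 1471. In C75S the last inside had 1735, 1730 and 1725 and the first outside had 1724, 1715 and 1711, so the choice cuts through a continuous range.

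The chosen spots were shallower than the rest. Total UMIs per Kupffer-rich spot had a median of 14458 in WT (10063 to 22234), against 17011 in the other spots. In C75S the median was 17446 (385 to 36785), against 18947. The members held 1709310 UMIs in WT and 1874703 in C75S. The 3 markers gave a median of 26 UMIs per member spot in WT (16 to 41) and 34 in C75S (1 to 92). Of the C75S members, 1 entered on a single marker UMI among 385 UMIs, and another had 8 among 4625. More cells of a type and more RNA per cell cannot be told apart in a spot.

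The rule fixes that its own genes are high, so their levels are a description only. Clec4f stood at 631 CPM in the Kupffer-rich spots and 250 in matched spots of WT, and at 602 and 279 in C75S. Cd5l stood at 1008 and 392, and at 1223 and 552. Vsig4 stood at 157 and 69.2, and at 197 and 94.5. Matched spots are the other spots of the same section, weighted so that each of 5 equal bins of the lobule axis counts as it does among the members. The axis is the ratio of Cyp2f2, a periportal enzyme, to Cyp2e1, a pericentral one, and the bins are called lobule bins.

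Each marker was also high when it had no part in the choice. Ranked by Cd5l and Vsig4 alone, the top 5% of spots had Clec4f higher by 0.94 on the log2 scale in WT (0.84 to 1.04) and 0.80 in C75S (0.71 to 0.90). Ranked by Clec4f and Vsig4, Cd5l was higher by 0.90 (0.81 to 0.98) and 0.77 (0.69 to 0.84). Ranked by Clec4f and Cd5l, Vsig4 was higher by 0.86 (0.65 to 1.06) and 0.68 (0.50 to 0.86). The 3 Kupffer cell transcripts thus varied together from spot to spot in both sections.

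Kupffer-rich spots were spread unevenly along the lobule. From the pericentral to the periportal lobule bin, 9, 21, 24, 27 and 34 of the 115 WT spots lay in each bin. The counts for the 108 C75S spots were 6, 15, 35, 29 and 23. The most pericentral bin held 7.83% of the members in WT (exact binomial interval 3.64% to 14.3%) and 5.56% in C75S (2.07% to 11.7%), where an even spread would give each bin the same share. The periportal bin held 29.6% (21.4% to 38.8%) in WT. In C75S the middle bin held the most, 32.4% (23.7% to 42.1%). The median marker share of all spots followed a flatter course, from 604 CPM in the pericentral bin to 816 in the middle and 673 in the periportal bin of WT, and 755, 1009 and 781 in C75S. Both sections thus had fewest Kupffer-rich spots on the pericentral side, while their highest bins differed, a difference that was not tested.

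**Figure D1:**
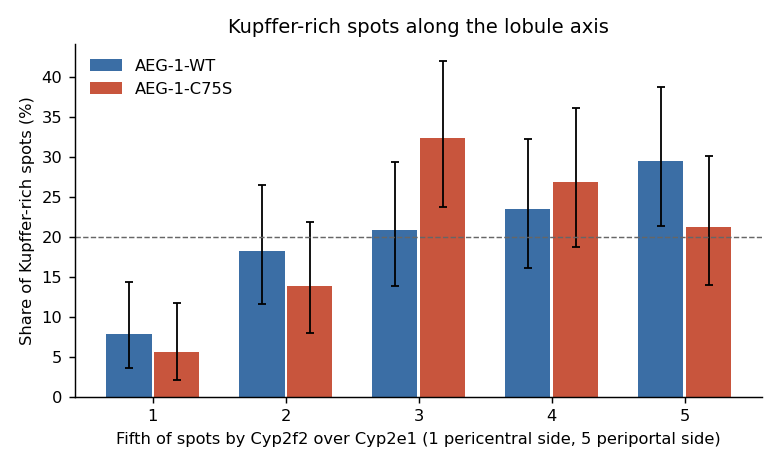
Share of the Kupffer-rich spots (percent) in each of 5 equal bins of the spots along the lobule axis, from pericentral (1) to periportal (5), with bars for WT (115 spots) and C75S (108 spots), exact 95% binomial intervals, and a dashed line at an even share. The pericentral bin held 7.83% and 5.56%, the lowest bar of each section.

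Genes other than the 3 of the rule were then compared between Kupffer-rich and matched spots. Among 7315 genes with at least 400 UMIs in each section, 198 were at least 1.3-fold higher in both sections, 2.71% of the genes compared, and 61 were at least 1.3-fold lower in both, 0.834%. Another 47 passed 1.3-fold in opposite directions. The median gene stood at -0.01 on the log2 scale in WT and 0.01 in C75S, and across genes, which are not independent, the ratios of the 2 sections had a Pearson r of 0.29. Of the higher genes 138 had counting intervals above 0 in both sections, and of the lower genes 5 had both below 0. These 2 counts differ in reach, because wider intervals go with fewer UMIs. The median UMIs expected in the members were 31.8 in WT and 39.0 in C75S for the higher genes. For the lower genes they were 25.7 and 25.3. The 5 thus do not show that true decreases are few. With the matched spots held equal in total UMIs as well, 188 genes were higher and 61 lower. Ranking by K after thinning each spot to 3000 UMIs, which kept 47 of 115 and 43 of 108 members, gave 83 higher and 33 lower genes. Without scaling to each spot's total, a choice made after the data were seen, the split turned to 78 higher and 480 lower, since the chosen spots were shallower: the median gene then stood at -0.33 and -0.14.

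Kupffer cell genes outside the rule were higher in both sections almost throughout. Of 17 listed genes, 14 passed the count minimum, and 13 of these were at least 1.3-fold higher in both sections, against 2.71% of all genes compared. Summed over the list the level was 2424 CPM in Kupffer-rich and 1341 in matched spots of WT, and 3026 against 1721 in C75S. The median log2 ratio of the list was 0.93 and 0.84. Folr2 was not measured here, and Adgre1, which encodes the macrophage marker F4/80, and Lyz2 fell under the minimum. Adgre1 had 26 and 46 UMIs in the members, with log2 ratios of 0.73 (0.10 to 1.31) and 0.76 (0.28 to 1.19).

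Marco, a scavenger receptor that binds bacteria, is the listed marker that the rule left out. In WT it stood at 81.3 CPM in Kupffer-rich spots, from 139 UMIs, and at 34.8 in matched spots. In C75S it stood at 227, from 426 UMIs, and at 109. The log2 ratio of Kupffer-rich over matched spots was 1.23 (0.96 to 1.48) in WT and 1.06 (0.91 to 1.21) in C75S. Marco was detected with at least 1 UMI in 66.1% of the WT members and 88.9% of the C75S members, against 41.5% and 74.9% of all spots. Single members ranged from 0 to 411 CPM with a median of 64.5 in WT, and from 0 to 1112 with a median of 181 in C75S, so the members of both sections overlapped from 0 to 411 CPM.

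C1qa, C1qb and C1qc encode the chains of complement C1q, which tissue macrophages supply. C1qa stood at 413 CPM in Kupffer-rich and 223 in matched spots of WT, and at 517 and 286 in C75S. C1qb stood at 212 against 112, and at 279 against 152. C1qc stood at 364 against 187, and at 423 against 229. Their log2 ratios lay close together, between 0.89 and 0.96 in WT and between 0.85 and 0.88 in C75S. Summed C1q had a median over members of 932 CPM in WT (268 to 1938) and 1188 in C75S (0 to 2316), where 0 belongs to the shallowest spot. Properdin, encoded by Cfp, stabilizes the alternative complement convertase and stood at 187 against 96.0, and at 273 against 142, with log2 ratios of 0.96 and 0.94.

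The other listed genes split by size. Csf1r, the receptor for the growth factor that macrophages depend on, had log2 ratios of 1.02 (0.81 to 1.22) and 0.83 (0.62 to 1.03). Cd68, a lysosomal membrane protein of macrophages, had 1.14 (0.91 to 1.37) and 0.83 (0.60 to 1.05). Timd4, a receptor for phosphatidylserine on dying cells, had 1.19 (0.90 to 1.47) in WT and 0.72 (0.45 to 0.99) in C75S, the widest gap between the sections on the list. Aif1, an actin-binding protein of macrophages, had 0.95 and 0.64, and Ctss, a protease of antigen processing, 0.77 and 0.97. Clec1b, a lectin receptor, had 0.79 and 0.92, and the proteoglycan Sdc3 0.82 and 0.69. Slc40a1, the iron exporter ferroportin, stood at 279 against 184 CPM and at 303 against 206, with smaller log2 ratios of 0.60 and 0.56. Hpgd, which breaks down prostaglandins, was the exception at 0.27 (0.04 to 0.49) and 0.29 (0.06 to 0.52).

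**Figure D2:**
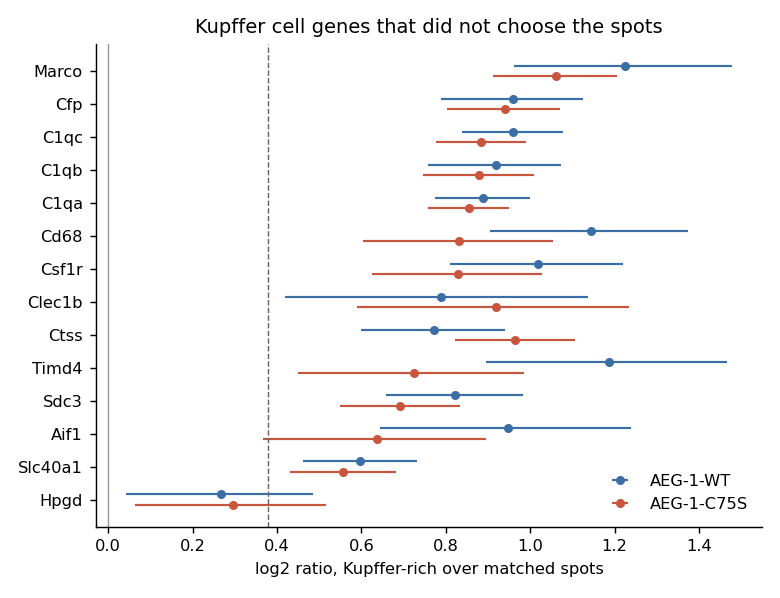
Log2 ratio of CPM in Kupffer-rich over matched spots for the 14 Kupffer cell genes that did not choose the spots and passed the count minimum, with 95% counting intervals, for both sections; the dashed line marks 1.3-fold. All points lie above 0, and Hpgd alone lies under the line, at 0.27 and 0.29.

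The course over all spots was graded. With the spots of a section divided into twentieths by K and the lobule bin held equal, Marco went from a log2 ratio of -1.32 against all spots in the lowest twentieth to 1.14 in the highest in WT, and from -1.43 to 0.96 in C75S. C1q went from -0.77 to 0.86 and from -1.15 to 0.80. In the twentieth next to the top, Marco stood at 0.73 in both sections and C1q at 0.58 and 0.50. Plasma protein genes of hepatocytes, such as albumin and the apolipoproteins, stayed between -0.07 and 0.03 throughout. Over all spots the summed Kupffer list had a Pearson r with K of 0.66 in 2309 spots and 0.71 in 2163 spots, where both values share the spot's total.

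**Figure D3:**
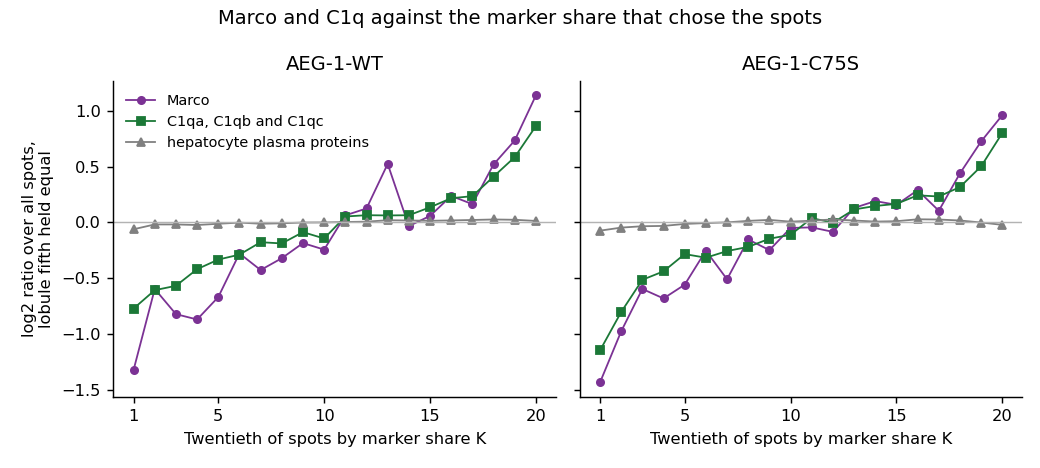
Log2 ratio of Marco, summed C1q (C1qa, C1qb and C1qc) and hepatocyte plasma protein genes in each twentieth of the spots by marker share K, over all spots with the lobule bin held equal, for both sections. Marco runs from -1.32 to 1.14 and from -1.43 to 0.96, while the plasma proteins stay near 0.

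Within each bin of the lobule the Kupffer genes kept this order. The summed list was higher in members than in the other spots of the same bin by 0.73 to 1.16 on the log2 scale in WT and by 0.76 to 1.03 in C75S. Summed C1q was higher by 0.78 to 1.34 and by 0.81 to 1.04. Marco was higher by 1.16 to 1.58 in WT. In C75S Marco was higher by 0.66 to 1.26 in 4 of the bins, and by 0.16 (-1.06 to 1.14) in the pericentral bin, where 6 members gave 8 UMIs.

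Transcription factors of Kupffer cells were less uniform, with 2 of 7 compared genes past 1.3-fold in both sections, against 2.71% of all genes. Spi1, which encodes the myeloid factor PU.1, stood at 43.3 against 24.6 CPM in WT and at 52.3 against 33.7 in C75S, with log2 ratios of 0.82 (0.45 to 1.16) and 0.63 (0.32 to 0.93). Zeb2, a regulator of tissue macrophage identity, had 0.46 (0.12 to 0.78) and 0.71 (0.42 to 0.98). Nr1h3, the sterol sensor LXR alpha, had 0.24 and 0.32, and Maf 0.21 and 0.20. Id3 had -0.05 and 0.17. Spic, a factor of iron-recycling macrophages, fell under the count minimum, with 22 and 45 UMIs in the members and log2 ratios of 0.77 (0.07 to 1.40) and 1.34 (0.86 to 1.80). Id3 and Nr1h3 are also made by other liver cells.

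Letters of the PU.1 site were read in the promoters of the genes that were higher together. The motif searched was GAGGAAGT on either strand, in RefSeq windows of GRCm38.p6 from 250 bases before to 50 after a gene's start. Of the 198 higher genes 155 had a window here, and 16 of these, 10.3%, held the motif. The share was 3.46% among 5865 compared genes with a window, 3.69% among all 27025 genes with a window searched and 6% among 50 of the lower genes. Counted by window, it was 8.04% of 199 windows against 3.2% of all 32851 searched. For comparison, the MAF motif TGCTGAC was in 4.52% of the higher genes and 4.64% of those compared, and the AP-1 site TGANTCA in 12.3% and 6.53%. A match is only a match of letters, and no match says only that these letters are not in the window.

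Below are 30 bases around the motif for 6 of these genes, on the gene's strand from 5′ to 3′, with the motif in capitals; they were chosen after the search as genes known from macrophages or blood cells whose match lies before the start. C1qc is a C1q chain, Cd300ld and Pirb are immune receptors of myeloid cells, Fcgr4 is an antibody receptor, Inpp5d is the lipid phosphatase SHIP1, and Renbp is a sugar epimerase.
C1qc (chr4:136893091-136893120, minus strand): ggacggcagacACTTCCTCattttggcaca
Cd300ld (chr11:114990011-114990040, minus strand): tctactcattaGAGGAAGTtccctgttcac
Fcgr4 (chr1:171018891-171018920, plus strand): taaggctatttACTTCCTCtcttctagtca
Inpp5d (chr1:87620281-87620310, plus strand): gtttctataatGAGGAAGTtctgtgcagct
Pirb (chr7:3720484-3720513, minus strand): gtcacaccattGAGGAAGTcagagcatggt
Renbp (chrX:73930943-73930972, minus strand): cataaggccagACTTCCTCacccagttccc
Their log2 ratios of Kupffer-rich over matched spots, in WT and then C75S, were 0.96 and 0.88 for C1qc, 0.97 and 0.99 for Cd300ld, 0.93 and 0.65 for Fcgr4, 0.98 and 0.75 for Inpp5d, 0.93 and 0.68 for Pirb, and 0.78 and 0.50 for Renbp. In C1qc, Fcgr4 and Renbp the motif runs on the opposite strand, so its reverse complement ACTTCCTC is in capitals.

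The 10 genes with the highest ratio in the lower of the 2 sections were Fyb, Marco, Rgs2, Ly86, Gbp2b, Cd300ld, Treml4, Pilrb1, Cfp and Cd163. Fyb, an adaptor of blood cell signalling, stood at 46.2 against 22.0 CPM in WT and at 58.1 against 27.4 in C75S, with log2 ratios of 1.07 and 1.08. Ly86, a partner of a Toll-like receptor homolog, stood at 41.0 against 20.4 and at 56.0 against 28.0. Cd300ld stood at 59.1 against 30.1 and at 65.6 against 32.9. Rgs2, a brake on G protein signalling, had 1.01 in both sections, and the guanylate-binding protein gene Gbp2b 1.05 and 0.98. Treml4 and Pilrb1, both receptors of myeloid cells, had 0.97 and 1.14, and 1.24 and 0.95. All 10 had counting intervals above 0 in both sections. Of the 198 higher genes 37 were on a gene list used here, so most were not.

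Receptors for phagocytosis and microbial patterns were higher in 6 of 7 compared genes, against 2.71% of all genes. Cd163, which takes up haemoglobin bound to haptoglobin, stood at 83.1 against 43.9 CPM in WT and at 60.8 against 31.7 in C75S, with log2 ratios of 0.92 and 0.94. The antibody receptor gene Fcgr3 had 0.94 and 0.62, the signalling chain Fcer1g 0.81 and 0.74, the adaptor Tyrobp 0.64 and 0.62, and the integrin Itgb2 0.95 and 0.67, with -0.04 in WT after thinning. Msr1, a scavenger receptor, had 0.61 and 0.41. The median of the list was 0.81 and 0.62, against -0.01 and 0.01 over all genes compared.

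Genes for uptake of dying cells and for cholesterol handling were mixed, with 2 of 8 higher in both sections, against 2.71% of all genes. The receptor kinases Mertk and Axl had log2 ratios of 0.40 and 0.46, and 0.72 and 0.73. Gas6, their ligand, had -0.45 (-0.72 to -0.20) in WT and -0.19 (-0.51 to 0.10) in C75S. Apoe, which hepatocytes also make, stood at 6072 against 6288 CPM and at 6381 against 6481. The LXR target Abca1 had 0.08 and 0.12. The receptors were thus higher in the Kupffer-rich spots and the ligand was not.

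Of 8 compared haem and iron genes 2 were higher, against 2.71% of all genes. Hmox1, which opens the haem ring, stood at 32.8 against 18.0 CPM in WT and at 42.7 against 25.9 in C75S, with log2 ratios of 0.87 (0.45 to 1.26) and 0.72 (0.37 to 1.05). Slc11a1, a metal transporter of the phagosome, had 1.21 (0.84 to 1.57) and 0.78 (0.42 to 1.13). Fth1, the ferritin heavy chain, had 0.10 and 0.06, and Cp, the ferroxidase that hepatocytes secrete, 0.01 and -0.07. Of 16 lysosome genes 1 passed 1.3-fold in both sections, the protease Lgmn at 294 against 178 and at 356 against 218, while the list's median was 0.24 and 0.20; with so few genes, 1 call is near the 2.71% of all genes.

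Antigen presentation genes of MHC class II were higher in 4 of 6, against 2.71% of all genes. Cd74, the invariant chain, stood at 508 against 373 CPM in WT and at 553 against 381 in C75S, with log2 ratios of 0.45 (0.34 to 0.55) and 0.54 (0.44 to 0.63). H2-Ab1 had 0.56 and 0.40, H2-DMa 0.64 and 0.83, and H2-DMb1, from 30 and 32 UMIs, 0.71 and 0.77, with -0.16 in C75S after thinning. The summed list was also taken by lobule bin, and the differences between bins were not tested. From the pericentral to the periportal bin of WT its log2 ratio was 1.29, 1.12, 0.13, 0.27 and 0.07, with 9, 21, 24, 27 and 34 members. In C75S its log2 ratio was 0.60, 0.79, 0.60, 0.47 and 0.18, from the pericentral to the periportal bin. Intervals included 0 in the middle (-0.06 to 0.30) and periportal (-0.09 to 0.23) bins of WT and the periportal bin of C75S (-0.02 to 0.37). Of the members 14 in WT and 16 in C75S were also among the top 5% of spots by MHC class II. These were 12.2% (6.82% to 19.6%) and 14.8% (8.71% to 22.9%) of the members, beside 5% of all spots. Over all spots MHC class II had a Pearson r with K of 0.07 in WT and 0.16 in C75S. By twentieths of K its log2 ratio over all spots, with the lobule bin held equal, went from -0.05 in the lowest to 0.42 in the highest in WT, with values of -0.22 to 0.24 between them, and from -0.59 to 0.48 in C75S.

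Of 16 measured cytokine and chemokine genes on the list 6 were compared, and 2 of these were higher, against 2.71% of all genes. The chemokine gene Ccl6, outside the list, was also higher, with log2 ratios of 1.0 (0.72 to 1.28) and 0.87 (0.60 to 1.12). Ccl24 had log2 ratios of 1.13 (0.65 to 1.58) and 0.71 (0.15 to 1.22), and Cxcl9 0.54 (-0.03 to 1.06) and 0.80 (0.35 to 1.22), the last turning to -1.02 after thinning. Tnf had 1 and 2 UMIs in the members and Il6 had 0 and 2. Among 4 compared genes of the Kupffer niche, Vcam1, an adhesion molecule, had 0.82 (0.39 to 1.22) and 0.98 (0.63 to 1.32), and Gdf2, which encodes BMP9 and comes from stellate cells, had 0.55 (0.21 to 0.87) and 0.60 (0.32 to 0.88). Cxcl12 had 0.02 and 0.08. Csf1, the ligand of Csf1r, gave 4 UMIs in the members of each section.

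Of 8 compared interferon response genes Irf7 passed 1.3-fold in both sections, 1 call against 2.71% of all genes, at 88.3 against 67.9 CPM in WT and at 113 against 74.7 in C75S. The list's median was 0.13 in WT and 0.45 in C75S. Rsad2, an antiviral enzyme, stood at 17.0 against 23.6 in WT and at 38.9 against 25.1 in C75S, with log2 ratios of -0.47 (-1.06 to 0.06) and 0.63 (0.27 to 0.98). Ifit3 had 0.03 (-0.53 to 0.54) and 0.66 (0.26 to 1.04). These 2 genes, picked after their values were seen, were at least 1.3-fold higher in the C75S section, from 73 and 62 UMIs in its members. In the WT section Ifit3 was near level, and Rsad2 was past 1.3-fold lower with an interval that includes 0. This difference between single sections was not tested. Outside the list, the interferon-induced genes Oas2 and Epsti1 were higher in both sections. Oas2 had 0.80 (0.22 to 1.34) and 1.31 (0.83 to 1.75), and Epsti1 1.52 (1.07 to 1.95) and 0.82 (0.29 to 1.32). Of the members 6 in WT and 10 in C75S were among the top 5% of spots by interferon response. These were 5.22% (1.94% to 11.0%) and 9.26% (4.53% to 16.4%) of the members, beside 5% of all spots. The WT share was thus near that of all spots.

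Markers of cells that neighbour Kupffer cells had small ratios. None of 11 compared sinusoidal endothelium genes passed 1.3-fold in both sections, where 2.71% of all genes were higher, a share at which none would be called among so few: the median was 0.23 in WT and 0.07 in C75S, and the summed level was 1268 against 1122 and 1230 against 1177 CPM, with Clec4g the most counted at 227 against 205 and 232 against 223. The scavenger receptor Stab2 had 0.28 and 0.22. None of 8 compared stellate cell genes passed either, with a median of 0.28 and 0.27 and a summed level of 854 against 724 and 1114 against 898, whose log2 ratios of 0.24 (0.16 to 0.31) and 0.31 (0.25 to 0.37) have intervals above 0. Ecm1, the most counted, had 0.21 (0.08 to 0.33) and 0.44 (0.35 to 0.54). Also measured were Reln, which encodes reelin, at 0.54 and 0.37, and Lrat, which stores retinol, at 0.38 and 0.51. The part of these cells in the results for niche genes was not tested.

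Genes of other blood cells were counted in few UMIs. The monocyte list, from 152 and 198 UMIs, summed to 88.9 against 57.7 CPM in WT and 106 against 78.7 in C75S, with log2 ratios of 0.63 (0.38 to 0.86) and 0.42 (0.21 to 0.63), above 0 in both sections. Plac8, the 1 gene of it that was compared, stood at 72.5 against 46.3 and at 92.8 against 62.1, with log2 ratios of 0.65 and 0.58. T and NK cell genes summed to 50.9 against 42.3 and 66.1 against 50.5, with 0.27 (-0.06 to 0.58) and 0.39 (0.11 to 0.65); their most counted gene, the chemokine Ccl5, had -0.27 and 0.31. The neutrophil list, from 29 and 24 UMIs, had 0.81 (0.21 to 1.35) in WT, an interval that covers the Kupffer list's 0.85, and -0.43 (-1.09 to 0.16) in C75S, and the receptor gene Csf3r gave 19 and 13 of these UMIs. The part of these cells in the results for Kupffer-rich spots was not tested.

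The lists of B and plasma cells, dendritic cells, platelets and dividing cells had WT intervals that include 0. B and plasma cell genes had 0.12 (-0.12 to 0.35) and 0.01 (-0.22 to 0.22), with the antibody light chain gene Igkc the most counted at 0.18 and -0.09. Dendritic cell genes had 0.35 (-0.05 to 0.72) and -0.08 (-0.54 to 0.35), led by Zbtb46 at 0.36 and -0.48. Platelet genes, led by Pf4, had 13 and 20 UMIs in the members. Proliferation genes had 0.20 (-0.24 to 0.62) and 0.50 (0.09 to 0.88), from 49 and 60 UMIs, of which Mki67 gave 19 and 17.

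Of the 3 compared genes of lipid-associated macrophages, a state known from steatotic liver, the lipase Lpl alone was higher, at 0.74 (0.36 to 1.10) and 0.58 (0.30 to 0.85), where 2.71% of all genes were. Fabp5, a fatty acid binding protein and the most counted of them, had -0.11 (-0.38 to 0.16) and -0.15 (-0.37 to 0.06), and Cd9 had -0.07 and -0.60. The summed list had 0.11 (-0.09 to 0.31) and 0.03 (-0.13 to 0.19), with medians of -0.07 and -0.15. Trem2 had 1 and 3 UMIs in the members and Gpnmb 1 and 0.

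**Figure D4:**
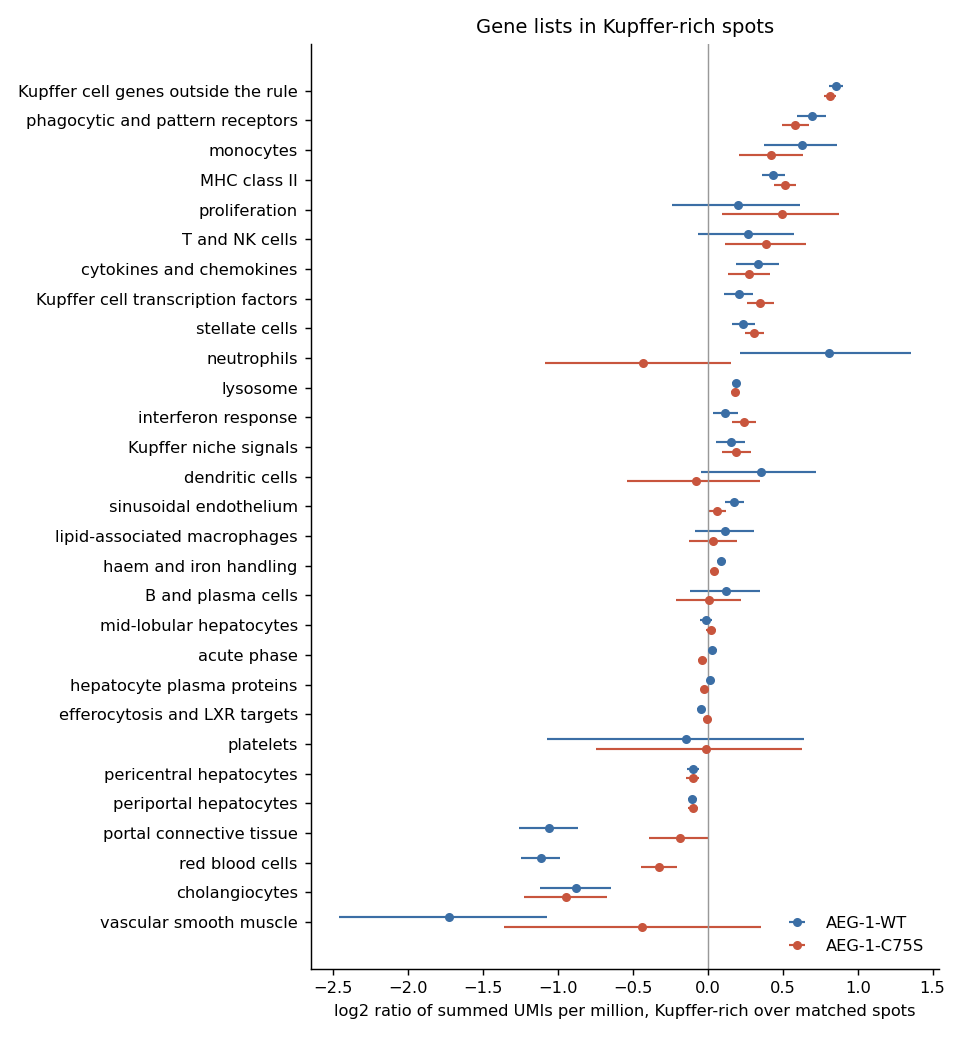
Log2 ratio of the summed CPM of each gene list in Kupffer-rich over matched spots, with 95% counting intervals, for both sections. The Kupffer list stands at 0.85 and 0.81, and the WT interval of the neutrophil list covers 0.85; bile duct, connective tissue, red blood cell and smooth muscle lists lie on the left.

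Fewer genes were lower, 61 or 0.834% of the genes compared, and most of them were on no list. The 5 on the lists mark bile ducts, connective tissue, red cells and pericentral hepatocytes. They were the 1 compared bile duct gene, 2 of 4 connective tissue genes, 1 of 4 red cell genes and 1 of 8 pericentral genes. Spp1, osteopontin of the bile duct epithelium, stood at 75.5 against 136 CPM in WT and at 51.2 against 93.4 in C75S, with log2 ratios of -0.85 (-1.11 to -0.60) and -0.87 (-1.18 to -0.57). Gsn, an actin-severing protein, had -1.11 and -1.03, and Col1a2, a collagen chain, -0.98 and -0.58. The summed connective tissue list was lower by 1.06 in WT, at 128 against 265, and stood at 118 against 134 in C75S, where its log2 ratio of -0.19 had an interval from -0.39 to 0.01. Smooth muscle genes, from 19 and 13 UMIs in the members, summed to 11.1 against 36.7 and 6.93 against 9.39. Their log2 ratio was -1.72 (-2.46 to -1.07) in WT and -0.44 in C75S, with an interval from -1.36 to 0.36 that includes 0. Tagln was the most counted at 7.61 against 19.7 and 5.33 against 7.32. Of the members 1 per section was among the top 5% of spots by bile duct and connective tissue genes. That was 0.87% of the members in WT and 0.926% in C75S, beside 5% of all spots.

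Of 4 compared red cell genes Hbb-bt was lower past 1.3-fold in both sections, where 0.834% of all genes were. Hbb-bs stood at 180 against 402 CPM in WT and at 205 against 253 in C75S, with log2 ratios of -1.16 (-1.33 to -1.0) and -0.30 (-0.45 to -0.15). Hba-a2 had -1.08 and -0.34, and Hbb-bt, from 12 and 17 UMIs, -1.33 and -0.59, the latter turning to 0.22 when spots were thinned before ranking. The summed list had -1.11 (-1.25 to -0.98) and -0.33 (-0.45 to -0.21). By these genes 1 member per section was among the top 5% of spots, 0.87% of the members in WT and 0.926% in C75S, beside 5% of all spots. The list's median, -1.12 and -0.45, turned to 0.21 in C75S after thinning. Axin2, a Wnt target of pericentral hepatocytes, had -1.17 (-2.39 to -0.19) and -0.71 (-1.79 to 0.18), from 8 and 10 UMIs. The rest of the 10 lowest, Smg9, Calcoco1, Phb, Plekhg6, Atp6v0d2, Znhit2 and Surf6, each rested on 10 to 23 UMIs per section, and of these Phb alone had both intervals below 0, at -0.66 and -1.05. Smg9, Calcoco1, Plekhg6 and Znhit2 turned direction in 1 section after thinning.

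Plasma protein genes of hepatocytes were near level in sum, with log2 ratios of 0.01 in WT and -0.02 in C75S, and Alb stood at 135751 against 134925 CPM in WT and 125840 against 128134 in C75S. Albumin, the main product of hepatocytes, thus made up nearly the same share of UMIs in Kupffer-rich and matched spots. UMIs per spot are another measure, since the Kupffer-rich spots were shallower. The acute phase list had medians of 0.03 and -0.03, and its most counted gene Itih4 stood at 3052 against 2980 and at 2716 against 2777. The periportal list stood at medians of -0.16 and -0.14, the mid-lobular list at -0.03 and 0.08, and the pericentral list at -0.21 and -0.17, with the lobule bins held equal. Pck1, which controls gluconeogenesis and was the most counted periportal gene, had -0.15 (-0.20 to -0.10) and -0.12 (-0.18 to -0.07), and Igfbp2, the most counted mid-lobular one, -0.03 and -0.01. Summed, the periportal list had log2 ratios of -0.10 (-0.13 to -0.07) in WT and -0.10 (-0.13 to -0.06) in C75S, and the pericentral list -0.10 (-0.14 to -0.06) and -0.10 (-0.14 to -0.06), small and below 0 in both sections.

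The genotypes were then set side by side within Kupffer-rich spots, as values of 2 sections. Among 6459 genes with at least 50 UMIs in the members of both sections together, 260 were at least 1.5-fold higher in C75S, 4.03%, and 333 were at least 1.5-fold lower, 5.16%. Of these 593 genes 514 had the same sign in the matched spots, and 156 passed 1.5-fold there the same way. Without scaling to spot totals the split was 745 higher and 122 lower, with the median gene at 0.21. The genes were selected on their ratio in the members, so these counts are a description only.

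Marco stood out from the other Kupffer genes. Its log2 ratio, C75S over WT, was 1.48 (1.2 to 1.77) in the Kupffer-rich spots and 1.65 in the matched spots. For the other 14 genes of the list with enough UMIs the ratio in the members lay between -0.16 and 0.69, with a median of 0.22, and their median in the matched spots was 0.33. C1qa had 0.33 (0.18 to 0.47), Cfp 0.55 (0.34 to 0.75), Csf1r -0.07 (-0.34 to 0.21) and Cd68 -0.01 (-0.32 to 0.30). Adgre1, at 0.69, had an interval from -0.03 to 1.44. Cd163, which is on the list of phagocytic receptors and not on the Kupffer list, had -0.45 (-0.82 to -0.08) in the members and -0.47 in the matched spots.

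**Figure D5:**
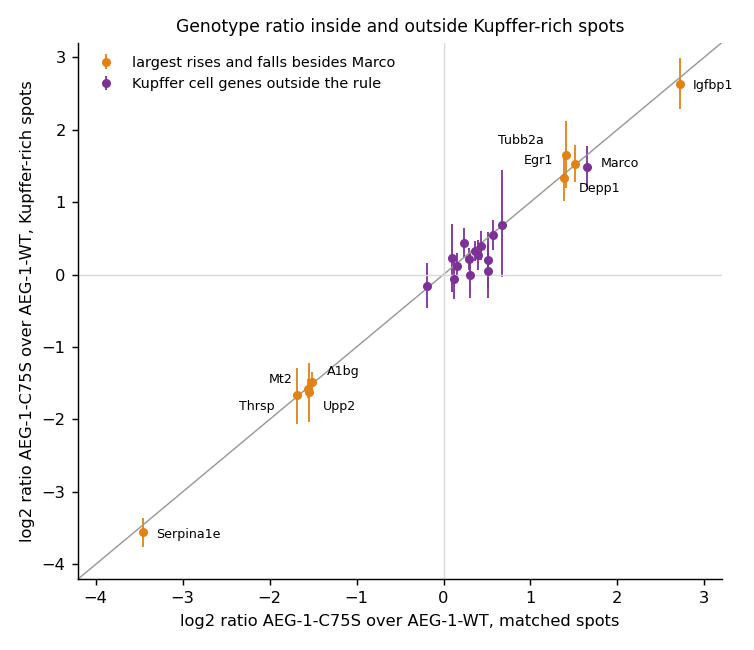
Log2 ratio, C75S over WT, in Kupffer-rich spots, with 95% counting intervals, against the same ratio in matched spots, for Kupffer cell genes outside the rule and for the genes with the largest rises and falls; the line marks equal ratios. Marco, at 1.65 and 1.48, lies apart from the other Kupffer genes, and the Kupffer gene farthest from the line, at 0.51 and 0.05, is Timd4.

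The other large differences in the members were of genes outside the Kupffer list. Igfbp1, a binding protein of insulin-like growth factors that fasting raises, stood at 45.1 CPM in WT and 279 in C75S, a log2 ratio of 2.63 (2.28 to 3.0). Tubb2a had 1.65, the immediate early gene Egr1 1.53 and the FOXO target Depp1 1.33. Serpina1e, one of the alpha-1-antitrypsin genes, stood at 1429 in WT and 121 in C75S, a ratio of -3.56 (-3.76 to -3.36), and its reads could be shared with near-identical paralogs. Thrsp, a lipogenic gene, had -1.67, Upp2 -1.62, the metallothionein gene Mt2 -1.58 and A1bg -1.48. In matched spots these ratios were close to those in the members, and the widest gap was 0.23, for Tubb2a.

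The genotype ratio in the members was also set against that in matched spots, gene by gene. Of 2207 genes with at least 200 UMIs, 155 had a counting interval of this difference that left out 0, or 7.02%, where 95% intervals leave out 0 in 5% by counting alone. Hbb-bs was farthest above, with a log2 ratio of 0.19 in the members and -0.67 in matched spots, then Hba-a2 with 0.07 and -0.67, Selenos with 0.74 and 0.04, Rufy3 with 0.24 and -0.36, and Grb7 with 0.31 and -0.23. Farthest below were Tspan7 with -0.69 and 0.02, Orm2 with 0.56 and 1.19, Ern1 with -0.01 and 0.59, Txndc12 with -0.54 and 0.02, and Cfl2 with -0.64 and -0.12. None of the 10 is on the Kupffer list. Of that list, Timd4 was farthest off, with a genotype ratio of 0.05 in the members and 0.51 in matched spots, a difference of -0.46 (-0.86 to -0.07). Aif1 and Cd68 differed by -0.31 each, with intervals that include 0, and Marco by -0.16 (-0.46 to 0.14). Ctss and Clec1b differed the other way, by 0.19 and 0.13, with intervals that include 0. The genes of the rule, whose levels the choice fixed, also differed downward: Clec4f by -0.23, Cd5l by -0.21 and Vsig4 by -0.13. The difference of Timd4 is thus the extreme of a list whose median, without Marco, was 0.22 in the members and 0.33 in matched spots.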

How the data were processed

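RNA of 1 liver section per genotype was measured on Visium spots. The deposited tables hold raw UMI counts of 19465 genes, which the authors made with Space Ranger 2.0.1 on mm10 according to the submitters' processing notes, which also name Seurat 4.3.0; the tables carry no normalization. The sections shared 1896 spot barcodes, which mark slide positions. Totals were 42618523 and 41892649 UMIs in 2316 and 2167 spots, and 7 and 4 spots over 50000 UMIs were left out, none with a marker share at the members' level.

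The members and the gene lists were chosen with earlier results of these data known. The 29 lists name 261 genes, of which 10 were not measured here. Some genes are not reported here.

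UMIs summed over members were divided by those expected from the other spots of the same section and 5 equal bins of (Cyp2f2+1)/(Cyp2e1+1). Intervals (95%) join the exact Poisson interval of the observed sum with the variance of the expected one, and ratios between genotypes use exact binomial intervals. The intervals of Kupffer-rich over matched spots were tested on data simulated with counting error alone. Spread between spots beyond counting was not simulated, so the intervals were not tested against it. Spots of a section are not replicates, so no test was run. Named were all genes of the Kupffer list, genes of other lists past 1.3-fold in both sections or else the most counted gene, the 10 highest and 10 lowest by the smaller ratio, and the 5 farthest each way in the genotype comparisons among genes with at least 200 UMIs. Other list genes in the text, and genes named as outside a list, were chosen after their values were seen. Python 3.11.15, numpy 2.4.6, scipy 1.17.1, pandas 2.3.3 and matplotlib 3.10.9 were used. Promoter windows come from RefSeq (GRCm38.p6), and the windows of a chromosome were left out of the search. Alternatives covered the share of spots taken, the markers, thinning, the matching, the scaling and the thresholds.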

Additional observations from a re-analysis of the deposited data

Results flagged for a closer look

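Genes of the lists and genes named by rank, not all genes compared, were searched for counting intervals on opposite sides of 0 in the 2 sections. The ratios are of Kupffer-rich over matched spots, and the difference between the sections was not tested. Ern1, a sensor of unfolded protein, had a log2 ratio of 0.32 in WT and -0.28 in C75S. It was searched because it was among the genes farthest below in the genotype comparison, a choice that favours such a contrast. Hsd17b13, a lipid droplet enzyme, had 0.10 and -0.13. Alb had 0.0088 and -0.026, Apoa1 0.029 and -0.020, and Ttr 0.021 and -0.027, so that the summed plasma protein list had 0.013 and -0.024; these intervals are narrow because the counts are large, and the sizes are below 1.3-fold.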

How the results depend on the processing

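With 1 section per genotype, counting error is the error given, and genes near the minimum of 400 UMIs can move past 1.3-fold by counting alone. No paired analysis was possible because each genotype has 1 section.

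The 198 higher and 61 lower genes became 287 and 151 for the top 2.5% of spots and 144 and 20 for the top 10%, with 157 and 130 of the 198 shared. Thinning each spot to 3000 UMIs before ranking kept 47 of 115 and 43 of 108 members and gave 83 higher and 33 lower genes, 72 and 6 of them shared, and 11 of 14 Kupffer genes. A minimum of 200 UMIs gave 321 and 138, one of 1000 gave 79 and 5, and 1.5-fold gave 90 and 13. Without matching 93 genes were lower, and without scaling 78 were higher and 480 lower. The log2 ratio of Marco in WT and C75S was 1.54 and 1.25 for the top 2.5%, 0.84 and 0.73 after thinning, and 0.74 and 0.73 for K without Cd5l, and 0.91 in WT without scaling. Between genotypes, 2-fold gave 50 higher and 58 lower genes, 200 UMIs gave 52 and 65, and no scaling gave 745 and 122. Of the 113 values for these counts and Marco, 87 stayed within 1.5 times the count or inside the counting interval, 26 moved and none of the Marco ratios turned. Of 2543 values for single genes, list medians and shares by lobule bin, 343 moved and 11 turned direction. The list medians moved most often: 186 moved, 2 turned and 388 stayed.

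Directions turned in WT after thinning for Itgb2 (-0.040), Plekhg6 (0.16), Smg9 (0.33), Znhit2 (0.017) and the cytokine median (-0.0016). In C75S they turned for Calcoco1 (0.087), Cxcl9 (-1.02), H2-DMb1 (-0.16), Hbb-bt (0.22) and the red blood cell median (0.21), and for Smg9 (0.075) in the top 10%. The causes were not tested; thinned shares rest on few marker UMIs. Of the 10 lowest genes those besides Spp1, Gsn and Phb are not separable from counting error in both sections. Leaving out spots under 5000 UMIs gave 195 and 67 genes, and this and the unscaled values were chosen after the data were seen.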
